A study of Mus musculus with 6 samples.

Results

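The 6 genes described here encode the E proteins of the mouse, Tcf3 (E2A), Tcf12 (HEB) and Tcf4 (E2-2), and the Id antagonists Id1, Id2 and Id3. They were found by symbol in the gene annotation, which listed 28048 genes. All 6 were among the 13599 genes with a unique molecular identifier (UMI, the tag that counts one captured RNA molecule) in at least 15 of the 60671 cells kept. Both genotypes carried a yellow fluorescent reporter knocked into the Bcl11b 3′ untranslated region, WT cells as Bcl11b YFP/YFP on C57BL/6 and ΔTE cells as Bcl11b YFPΔEnh/YFPΔEnh, which lack a distal Bcl11b enhancer, the timing enhancer (TE), on both copies. Marrow of male and female mice aged 2 to 4 months was pooled, 6 to 8 mice per genotype, enriched for CD117, and driven to T-lineage development on OP9-DL1 cells, a mouse stromal line that presents the Notch ligand Delta-like 1. These cultures were sorted on CD44, CD25 and the Bcl11b reporter into DN1 (CD25-), DN2a (CD25+, reporter off) and DN2b (CD25+, reporter on), all CD44+, then returned to OP9-DL1 for 4 days and profiled by sci-RNA-seq3, a combinatorial indexing method for single cells. The paper's methods state that cultures of this experiment were supplemented with interleukins and stem cell factor for generating natural killer and innate lymphoid cells. Each genotype and starting population was 1 library, indexed in 3 reverse-transcription wells. Genotypes and starts are therefore compared without a test, and wells show only technical spread.

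E proteins are basic helix-loop-helix transcription factors that bind DNA as dimers at E-box motifs and, in early thymocytes, drive T-lineage genes such as those of the pre-T-cell receptor and of receptor gene rearrangement. Id proteins dimerise with E proteins but lack the basic region that contacts DNA, and so keep them off their targets. Id2 is a classic requirement of innate lymphoid cells (ILCs) and natural killer (NK) cells, Id3 is induced by T-cell receptor signalling, and Id1 responds to bone morphogenetic protein signals. Bcl11b is a regulator of T-cell commitment, and the 3 starting populations sample cells before and after it comes on.

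In the annotation used for positions (GENCODE M21, build GRCm38), Tcf3 (ENSMUSG00000020167) lies at chr10:80409514-80433647 on the minus strand and Tcf12 (ENSMUSG00000032228) at chr9:71842688-72111871, also on the minus strand. Id1 (ENSMUSG00000042745) spans chr2:152736251-152737410 on the plus strand, Id2 (ENSMUSG00000020644) chr12:25093799-25097140 on the minus strand and Id3 (ENSMUSG00000007872) chr4:136143497-136145755 on the plus strand. Tcf4 has the identifier ENSMUSG00000053477. The counts are per whole gene, so the E12 and E47 forms of Tcf3 and the short and long forms of Tcf12 and Tcf4 are summed. Over all kept cells Tcf12 had 19448 UMIs, Tcf4 10428, Tcf3 2969, Id2 1699, Id3 1077 and Id1 543, and the share of cells with any UMI ran from 0.869% for Id1 to 24.7% for Tcf12.

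The libraries held between 3401 (ΔTE DN2b) and 19489 (WT DN2a) kept cells and between 1715982 and 9041255 UMIs, with a median of 385 to 485 UMIs per cell. Bcl11b itself, whose enhancer was deleted, measured 235, 535 and 856 UMIs per 1000000 UMIs (CPM) in WT cultures from DN1, DN2a and DN2b, and 89.4, 256 and 539.6 in the matching ΔTE cultures. The WT DN2a library stood apart: its median mitochondrial share was 13.3%, against 20.9% to 23.9% elsewhere, the mitochondrial limit removed 2.59% of its cells against 26.8% to 56.6%, and 9.99% of its cells carried stromal markers. One of the 3 wells of ΔTE DN2a, well 2, also stood apart, with 13.9% stroma-like cells against 3.13% and 1.87% in the other wells. Over the 9914 genes compared at the DN2a start the median gene had a ΔTE to WT log2 ratio of -0.14, and the median was 0.00 at DN1 and -0.01 at DN2b. Ratios of the members from DN2a and DN2b are also given without the stroma-like cells, and without that well where it moved them. In summed libraries, fewer cells of a type and less RNA per cell cannot be told apart, and the 95% intervals given cover counting error only.

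Cells were also grouped by marker genes, with at least 2 markers of one list and more than of any other. This placed 811 cells as T-like (Cd3d, Cd3e and other T-cell receptor complex genes), 2991 as ILC/NK-like, 1754 as progenitor-like, 732 as myeloid-like and 3427 as stroma-like, whereas 50864 cells (83.8%) fell in no group. Most assignments rest on exactly 2 markers, in 87.5% of T-like and 79.0% of ILC/NK-like cells but 10.9% of stroma-like cells. At least one marker of another group was present in 42.3% to 65.6% of the cells of these 5 groups. The ILC/NK list held 20 genes, of which Klrg1, Eomes and Il5 had no UMI in any library, and its summed level ran from 669 to 1564 CPM, highest in ΔTE DN2b. In WT DN1, 7 list genes had no UMI, Il2rb, Klrb1c and Xcl1 among them. The ILC/NK-like share was 3.54%, 3.62% and 6.10% in WT cultures from DN1, DN2a and DN2b, and 3.81%, 6.65% and 12.7% in ΔTE cultures. Nkg7, Gzmb and Cd160 gave most of these cells and were also at 296, 157 and 76.1 CPM in cells in no group. Without them, a choice made after seeing the data, 485 ILC/NK-like cells remained, 7 in WT DN1 and 27 in ΔTE DN1. The DN1 shares thus rest mostly on these markers.

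**Figure D1:**
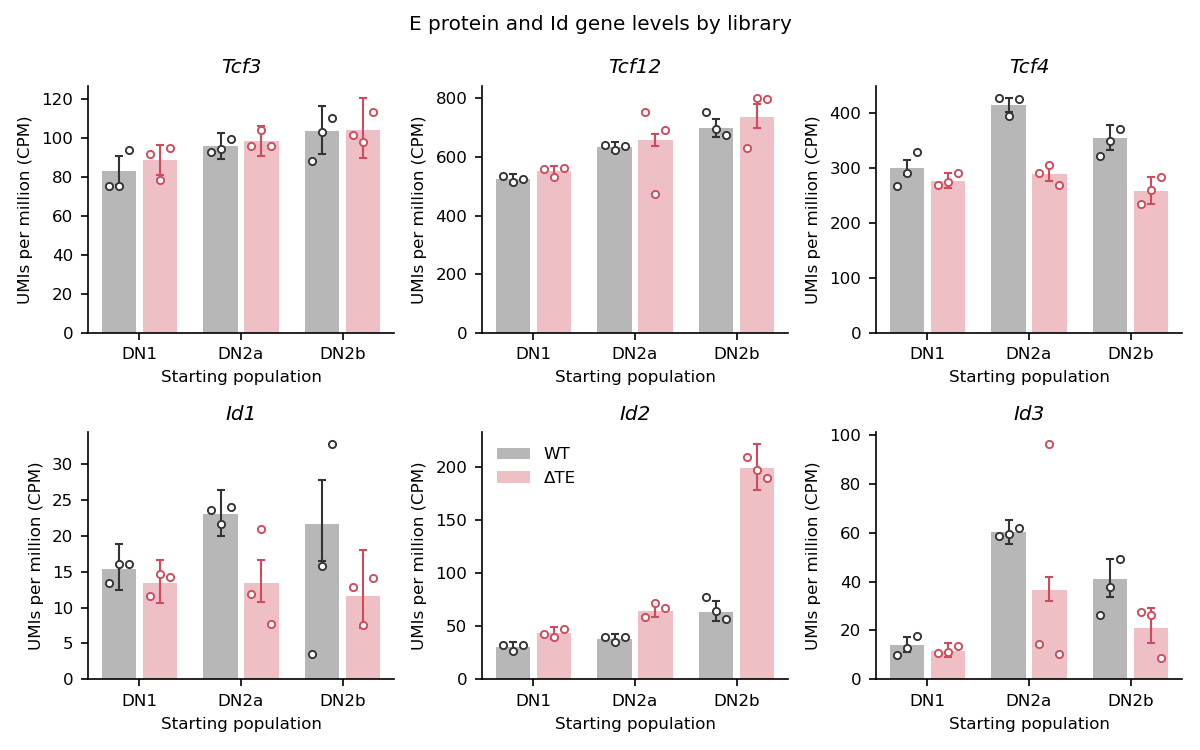
Levels of the 6 genes in CPM (vertical axis, from 0, a separate scale for each gene) by starting population (horizontal axis) in WT (grey) and ΔTE (red) libraries. Bars are library values, error bars their exact Poisson 95% intervals and open circles the 3 wells. The Id2 bars of ΔTE stand above those of WT at every start, up to 198.7 against 63.4 from DN2b, and the Tcf4 bars of ΔTE from DN2a and DN2b stand below.

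Tcf12, the most abundant E protein transcript here by UMIs, was higher in cultures from later starts and differed little between genotypes. It measured 524, 634 and 698 CPM in WT from DN1, DN2a and DN2b and 551, 658 and 738 CPM in ΔTE. In WT cells every DN2a well (625 to 639) lay above every DN1 well (514 to 536), and every DN2b well (676 to 753) lay above the DN2a wells, with log2 ratios of 0.27 (0.21 to 0.34) and 0.14 (0.06 to 0.21). Wells of the later start lay above those of the earlier for 36.1% of all genes at the first of these steps and for 4.04% at the second. In ΔTE cells the log2 ratios were 0.26 and 0.17 and the wells overlapped, since well 2 of DN2a was at 475 CPM and the other wells at 754 and 691. Without well 2 these steps were 0.41 and 0.013, and without well 1 of DN2a they were 0.062 and 0.36. Between genotypes the Tcf12 log2 ratios of ΔTE to WT were 0.07, 0.06 and 0.08, with overlapping wells at each start, and 0.02 and 0.07 at DN2a and DN2b without stroma-like cells. Without these cells the WT steps were 0.36 and 0.070 and the ΔTE steps 0.31 and 0.13. Over 17 alternative settings at each start the ΔTE to WT ratios of Tcf12 ran from -0.14 to 0.22, and none passed the 1.2-fold limit used to describe differences.

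Tcf3, which encodes E12 and E47, showed the same narrow range. Its level was 83.1, 95.8 and 104 CPM in WT and 88.6, 98.3 and 104 CPM in ΔTE from DN1, DN2a and DN2b. The ΔTE to WT log2 ratios were 0.09 (-0.09 to 0.27), 0.04 (-0.11 to 0.19) and 0.01 (-0.27 to 0.28), so the intervals reached to about 1.2-fold in either direction. All genotype wells overlapped. Without stroma-like cells the ratios at DN2a and DN2b were 0.03 and -0.01. From DN1 to DN2a the log2 ratio of Tcf3 was 0.20 in WT and 0.15 in ΔTE, where the median of all genes was 0.14 and -0.0085, and without stroma-like cells it was 0.25 and 0.18.

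Tcf4, the E protein best known from plasmacytoid dendritic cells, was lower in ΔTE than in WT cultures from DN2a and DN2b. It measured 300.3, 415 and 355 CPM in WT and 277, 289.6 and 259 CPM in ΔTE from DN1, DN2a and DN2b. The WT DN2a wells were at 428, 396 and 426 CPM and the ΔTE DN2a wells at 290.4, 306 and 269.6, with no overlap. The WT DN2b wells were at 323, 349 and 372 CPM and the ΔTE DN2b wells at 235, 261 and 283, again with no overlap. On the log2 scale ΔTE differed from WT by -0.11 (-0.21 to -0.02) at DN1, where wells overlapped, -0.52 (-0.60 to -0.44) at DN2a and -0.46 (-0.62 to -0.29) at DN2b. As background, 26.6% of genes at DN2a and 16.9% at DN2b were lower by more than 1.2-fold, and the wells were lower without overlap for 17.5% and 9.77%. At DN1 these shares were 8.63% and 8.33%. The median gene was also lower at DN2a, at -0.14. There 90.9% of genes had a higher ratio than Tcf4, and scaling to TMM factors left -0.39 for Tcf4.

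Tcf4 was highest in stroma-like cells (686 CPM), and stroma-like cells were more common in WT than in ΔTE from DN2a (9.99% against 6.43%) and from DN2b (3.74% against 1.65%). With stroma-like cells left out, the Tcf4 log2 ratios were -0.12, -0.47 and -0.46. Among cells in no group or progenitor-like alone, Tcf4 measured 293, 359 and 344 CPM in WT and 274, 265 and 252 CPM in ΔTE, with ratios of -0.09, -0.44 and -0.45. Between starts Tcf4 moved by 0.47 from WT DN1 to DN2a, with wells above those of DN1, and by -0.23 on to DN2b, with wells below, as for 33.8% of all genes. The ΔTE steps were 0.06 and -0.16 with overlapping wells, where 8.17% of genes had lower wells at the second step. Without stroma-like cells the WT steps were 0.30 and -0.064, and the ΔTE steps -0.053 and -0.058. Over all 17 alternatives the ratio stayed below the 1.2-fold limit at DN2a (-0.56 to -0.36) and at DN2b (-0.52 to -0.27).

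**Figure D2:**
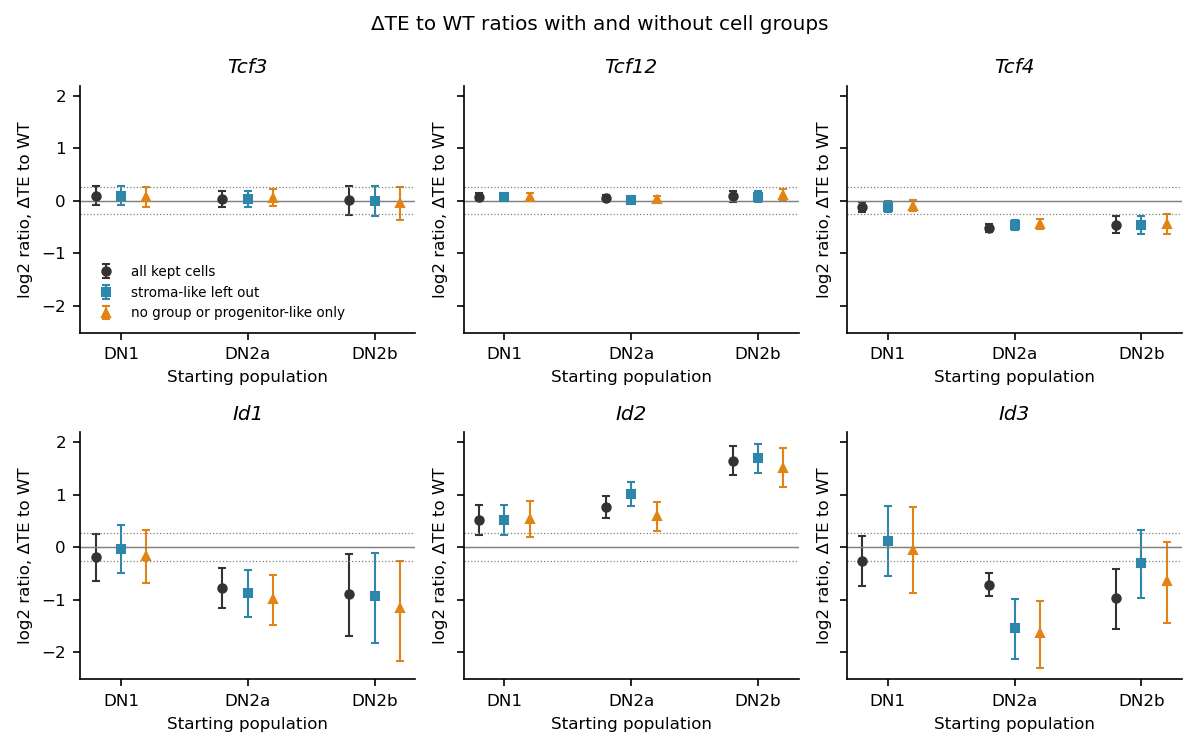
Log2 ratios of ΔTE to WT (vertical axis) for each gene by starting population (horizontal axis), over all kept cells (circles), with stroma-like cells left out (squares) and over cells in no group or progenitor-like only (triangles). Error bars are 95% counting intervals and dotted lines mark 1.2-fold. Id2 lies above the upper line at all 3 starts under each choice of cells, Tcf4 below the lower line from DN2a and DN2b, and Id3 moves with the stroma-like cells.

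Id2, the antagonist required by ILC and NK cells, was higher in ΔTE than in WT cultures at all 3 starts and higher in cultures from later starts in both genotypes. Its level was 30.2, 37.9 and 63.4 CPM in WT (181, 343 and 173 UMIs) and 43.1, 64.4 and 198.7 CPM in ΔTE (254, 407 and 341 UMIs). The wells did not overlap between genotypes at DN1 (WT 26.1 to 32.2, ΔTE 39.8 to 47.2), DN2a (35.1 to 39.7, 58.7 to 71.4) or DN2b (56.7 to 77.6, 189 to 209). The log2 ratios were 0.51 (0.23 to 0.80), 0.76 (0.55 to 0.98) and 1.65 (1.38 to 1.92), and 0.52, 1.01 and 1.69 without stroma-like cells. As background for the 3 starts, 8.41%, 4.47% and 15% of genes were higher by more than 1.2-fold, and wells were higher without overlap for 8.9%, 2.62% and 8.1%. Id2 was 1 of 67 genes, 0.985% of the 6801 measured at all starts, that passed 1.2-fold upward in each.

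The step of Id2 between starts was widest from DN2a to DN2b in ΔTE. In WT the log2 ratio of DN2a to DN1 was 0.33 (0.06 to 0.60) and that of DN2b to DN2a 0.74 (0.47 to 1.01). The same ratios were 0.58 (0.35 to 0.81) and 1.62 (1.41 to 1.84) in ΔTE. Wells of the later start lay above those of the earlier in each of these 4 comparisons. Of all genes 36.1% and 4.04% did so in the WT comparisons and 8.87% and 4.89% in the ΔTE comparisons, and 34.6% and 4.3% passed 1.2-fold upward in the WT comparisons. Without stroma-like cells the steps were 0.094 and 0.96 in WT and 0.59 and 1.64 in ΔTE. Of cells thinned to 300 UMIs, those with an Id2 UMI made up 0.860%, 1.11% and 1.61% in WT and 1.24%, 1.81% and 5.34% in ΔTE. By comparison, the share was 0.971% (0.391% to 1.99%) in T-like cells, which should hold little Id2, at a median depth of 529 UMIs before thinning, and of the 6 libraries only ΔTE DN2b lay above that interval.

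ILC/NK-like cells, which moved with Id2 across libraries, carried 162 of the 341 Id2 UMIs of ΔTE DN2b and 55 of the 173 of WT DN2b. With ILC/NK-like cells left out, the ΔTE to WT log2 ratio of Id2 was 0.45, 0.38 and 1.38 at DN1, DN2a and DN2b. Among cells in no group or progenitor-like only, Id2 measured 23.2, 29.97 and 43.9 CPM in WT and 33.8, 45.0 and 125 CPM in ΔTE, and the ratios were 0.54, 0.59 and 1.51. Cells in no group may still be of these types, since a sparse profile often lacks 2 markers. Under the 17 alternatives run at each start, the ratio was above 1.2-fold in all, from 0.43 to 0.72, 0.38 to 1.08 and 1.22 to 1.74.

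Id1 and Id3 were lower in ΔTE from DN2a, but Id1 had few UMIs in all, most Id3 UMIs lay in stroma-like cells, and the wells of both varied. Id3 measured 14.0, 60.2 and 41.0 CPM in WT and 11.7, 36.7 and 21.0 CPM in ΔTE. At ΔTE DN2a its wells read 14.3, 96.3 and 10.2 CPM, the highest being well 2, so the ratio of -0.71 to WT became -2.23 without that well and -0.09 without well 1. With stroma-like cells left out, the Id3 ratios were 0.11, -1.54 and -0.31. Across starts, Id3 was 2.10 (1.77 to 2.45) higher on the log2 scale in WT DN2a than in WT DN1, where the summed level of 12 stromal markers was 2704 and 637 CPM, and 1.33 higher without stroma-like cells.

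Id1 was the least abundant member, at 15.4, 23.0 and 21.6 CPM in WT and 13.4, 13.5 and 11.7 CPM in ΔTE, from 20 to 208 UMIs per library. At DN2a the ΔTE wells (7.68 to 21.0) lay narrowly below the WT wells (21.6 to 24.0), as for 17.5% of all genes. The log2 ratio was -0.77 (-1.15 to -0.40), where 26.6% of all genes were lower by more than 1.2-fold. It stayed between -1.14 and -0.54 under the alternatives and was -0.87 without stroma-like cells. At DN2b the ratio was -0.89 (-1.70 to -0.14) from 79 UMIs in both libraries, which is below the 100 UMIs asked of a gene for the shares of all genes. The WT DN2b wells ran from 3.53 to 32.8 CPM, and without the highest of them, well 3, the ratio was 0.11. Without stroma-like cells it was -0.93.

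The balance of the family was summed up as the share of Id UMIs among Id plus E protein UMIs. It was 6.16%, 9.57% and 9.82% in WT and 6.92%, 9.87% and 17.4% in ΔTE from DN1, DN2a and DN2b. The log2 ratio of Id to E, ΔTE against WT, was 0.18 (-0.04 to 0.40), 0.05 (-0.09 to 0.19) and 0.95 (0.72 to 1.18). Id2 accounts for 341 of the 397 Id UMIs of ΔTE DN2b, whereas Id3 accounts for 544 of the 1095 of WT DN2a. The DN2a value depended on single wells and on stroma-like cells, being -0.47 without well 2 of ΔTE, 0.46 without well 1 of ΔTE and 0.37 without stroma-like cells. At DN2b the ratio was 1.198 without stroma-like cells and 0.49 without ILC/NK-like cells.

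**Figure D3:**
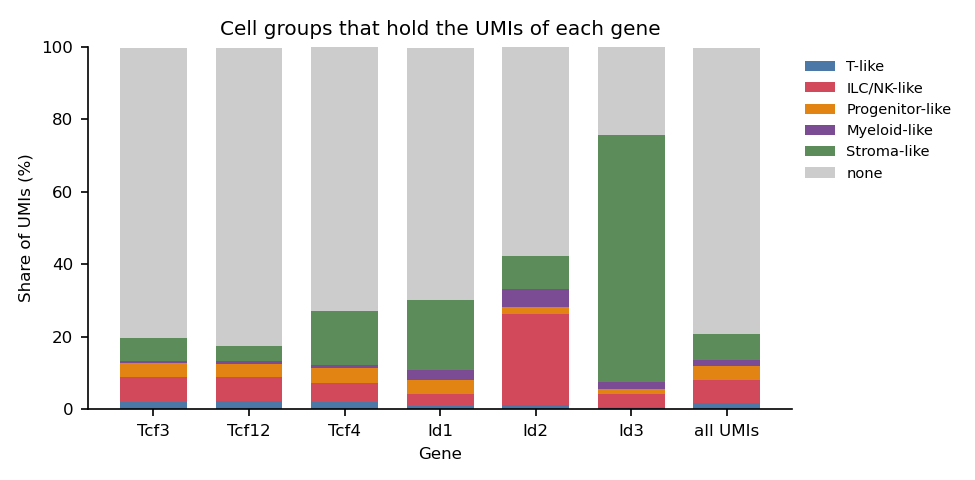
Share of the UMIs of each gene (vertical axis, percent) held by each marker-defined cell group, with the same for all UMIs in the last bar. Cells with a pair of mast cell markers, under 1% of each bar, are not drawn. Stroma-like cells hold 68.1% of Id3 UMIs and 7.17% of all UMIs, and ILC/NK-like cells 25.01% of Id2 UMIs and 6.35% of all.

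The cell groups divided the members by type. Most Id3 UMIs came from stroma-like cells, defined by collagen and matrix genes of the kind the OP9-DL1 feeder makes. Stroma-like cells held 733 of its 1077 UMIs (68.1%) while giving 7.17% of all UMIs. Stroma-like cells also held 14.9% of Tcf4 and 19.3% of Id1 UMIs. ILC/NK-like cells gave 6.35% of all UMIs but 25.01% of Id2 UMIs, although cells in no group still held 57.7% of them. These groups were tested across libraries with edgeR's quasi-likelihood test, a library block and Benjamini-Hochberg adjustment over 7761 genes, and the contrasts share libraries and groups.

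**Figure D4:**
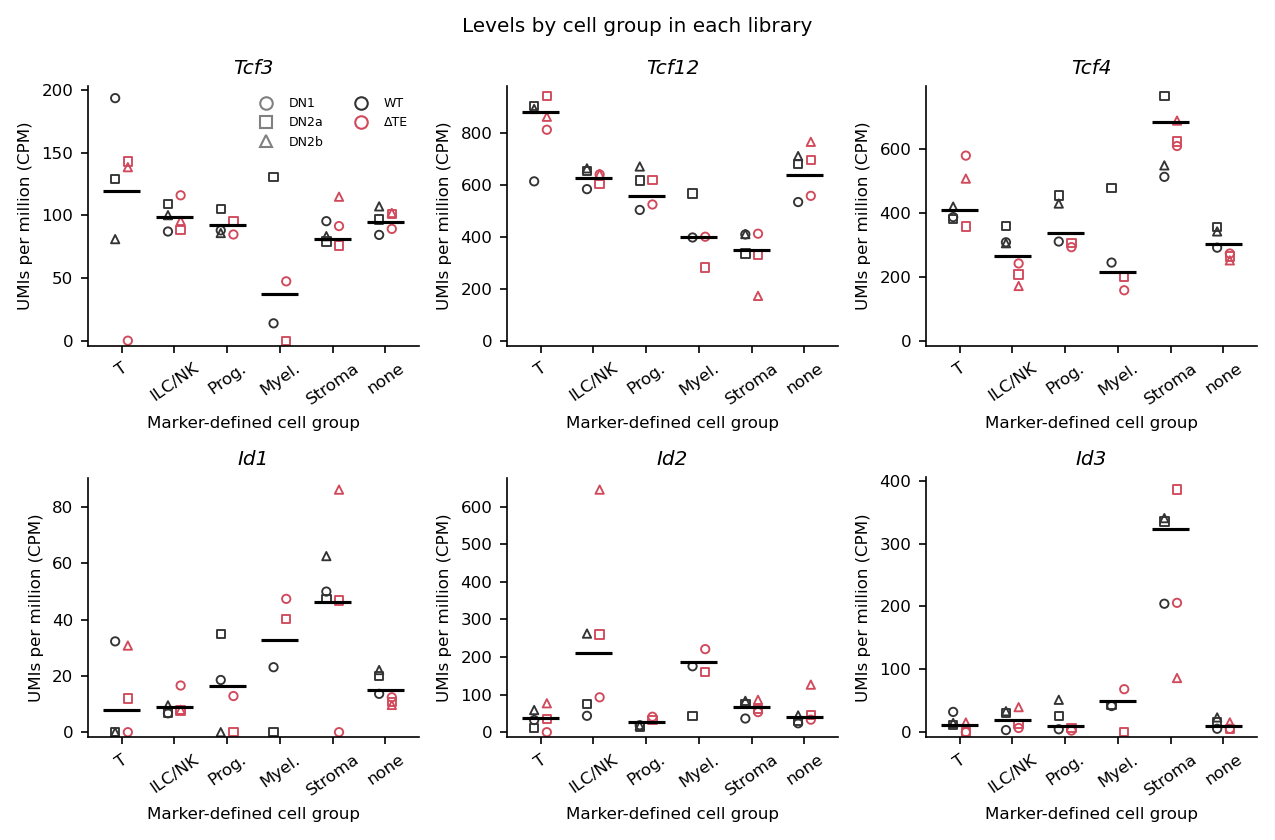
Levels in CPM (vertical axis, a separate scale for each gene) by marker-defined cell group (horizontal axis), with 1 symbol per library of at least 20 cells in the group. Colours give the genotype, shapes the starting population and bars the value over all libraries. Tcf12 is highest in T-like cells (879), Id2 in ILC/NK-like (211) and myeloid-like cells (187), and Tcf4 and Id3 in stroma-like cells.

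In ILC/NK-like against T-like cells, Id2 rose and Tcf12 and Tcf4 fell. Id2 measured 43.5, 74.3 and 262 CPM in the ILC/NK-like cells of WT DN1, DN2a and DN2b and 92.8, 259.5 and 645 CPM in those of ΔTE, against 0 to 76.9 CPM in T-like cells. Its log2 difference was 2.52 ± 0.33 (SE, adjusted p = 1.00e-09, higher in 6 of 6 libraries), among 1.93% of genes called higher. Tcf12 was 627 CPM in ILC/NK-like and 879 CPM in T-like cells, with a difference of -0.41 ± 0.12 (adjusted p = 0.0239). Tcf4 was 266 and 410.4 CPM, with -0.55 ± 0.15 (adjusted p = 0.0150), and 1.83% of genes were called lower. The median of all genes in this contrast was 0.07. Tcf3 (-0.23 ± 0.24), Id1 (0.34 ± 0.88) and Id3 (1.03 ± 0.71) did not pass.

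The Id2 call held when any 1 library was left out, with an adjusted p of at most 1.74e-06, and was lost with at least 3 markers required (2.01, adjusted p = 0.211). The Tcf12 call was lost without WT DN2a, WT DN2b or ΔTE DN2a (adjusted p = 0.252, 0.123 and 0.262) and the Tcf4 call without WT DN2b, ΔTE DN2a or ΔTE DN2b (0.0732, 0.114 and 0.231). Nkg7, Gzmb and Cd160 gave most of the ILC/NK-like cells. Without these 3 markers, a choice made after seeing the data, 485 cells remained (7, 56 and 78 in WT and 27, 154 and 163 in ΔTE from DN1, DN2a and DN2b). Id2 was then at 623 CPM (536 to 720.5) and Tcf4 at 161 CPM, 3.68 above and -1.24 from T-like cells on the log2 scale. By library, Id2 was at 394, 500 and 416 CPM in WT and 552, 668 and 745 CPM in ΔTE from DN1, DN2a and DN2b. The WT DN1 value rests on 2 UMIs. Id2 thus differed less between libraries than with the full list, so the steep rise given above depends on the markers used.

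Within ILC/NK-like cells Tcf4 measured 308, 360.0 and 305 CPM in WT and 242, 208 and 171 CPM in ΔTE, so each ΔTE library lay below each WT library. The same held over cells in no group or progenitor-like only, at 293, 359 and 344 CPM in WT and 274, 265 and 252 CPM in ΔTE. How many of all genes are ordered this way was not counted. In T-like cells the order was not the same, with 387, 381 and 420 CPM in WT and 579, 357 and 507 CPM in ΔTE. The T-like value of ΔTE DN1 rests on 10 UMIs in 24 cells. The interaction of genotype with the contrast of ILC/NK-like to T-like cells was -0.81 for Tcf4 (unadjusted p = 0.00863, adjusted p = 0.999 in edgeR). Over 30 such interaction tests of the 6 members, 3 had an unadjusted p under 0.05 and 0 passed the adjusted threshold, the smallest adjusted p being 0.999.

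Against progenitor-like cells, Id2 also rose in ILC/NK-like cells, by 2.31 ± 0.28 (adjusted p = 6.65e-11, edgeR), where 1.49% of genes were called higher and 0.515% lower. Tcf4 was -0.35 ± 0.13 from progenitor-like cells in that contrast and did not pass (adjusted p = 0.184), although with the shorter marker list it did (-1.08, adjusted p = 0.000395). T-like cells differed from progenitor-like cells in Tcf12, at 879 against 555 CPM, by 0.51 ± 0.13 (adjusted p = 0.0109), with 1.29% of genes called higher and 0.773% lower. That call was lost without WT DN1 (adjusted p = 0.0529), WT DN2a (0.184), ΔTE DN1 (0.0523) or ΔTE DN2a (0.103). Tcf3 in T-like cells was at 119 CPM and in progenitor-like cells at 92.1 CPM, a difference of 0.29 ± 0.26 that did not pass.

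Myeloid-like cells, found mostly in cultures from DN1 (369 of WT and 280 of ΔTE), had less Tcf3 and more Id2 and Id3 than progenitor-like cells. Tcf3 was at 36.9 CPM, -1.42 ± 0.38 from progenitor-like cells (adjusted p = 0.00764), where 1.96% of genes were called lower. Id2 was at 187 CPM, a rise of 2.95 ± 0.35 (adjusted p = 7.32e-12), and Id3 at 49.9 CPM, a rise of 2.59 ± 0.60 (adjusted p = 0.00129) that rests on 23 UMIs, with 4.43% of genes called higher. Without WT DN1 Tcf3 did not pass (-0.86, adjusted p = 0.475), and without ΔTE DN1 Id3 did not (1.79, adjusted p = 0.258), while Id2 kept its call. In stroma-like cells, where 29.1% of genes were called higher and 24.2% lower, Id3 rose by 4.84 ± 0.32, Id1 by 1.69 ± 0.41, Id2 by 1.45 ± 0.33 and Tcf4 by 1.18 ± 0.12, while Tcf12 fell by 0.40. Their adjusted p-values were 9.84e-30, 0.000206, 6.39e-05, 3.31e-17 and 0.00315. The Tcf12 call was lost without WT DN2a (0.0775), without WT DN2b (0.0621) and in DESeq2 (0.349), and the Id2 call within ΔTE libraries alone (0.58, adjusted p = 0.336).

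The Id share of Id plus E UMIs was 3.87% in T-like, 5.05% in progenitor-like, 5.87% in ungrouped, 19.5% in ILC/NK-like, 28.2% in stroma-like and 29.3% in myeloid-like cells. In ILC/NK-like cells it was 5.19%, 9.04% and 22.2% in WT and 10.4%, 23.8% and 43.3% in ΔTE from DN1, DN2a and DN2b. These library shares use the full marker list and were not computed with the shorter one, under which Id2 differed less between libraries. Compared library by library, the log2 balance of ILC/NK-like over T-like cells averaged 2.15 ± 1.45 (SD, n = 6), higher in 5 of 6 libraries, with p = 0.0625 in an exact two-sided sign-flip permutation test whose smallest possible p is 0.03125. Over progenitor-like cells it averaged 1.37 ± 1.14 in ILC/NK-like and 2.70 ± 0.61 in stroma-like cells, higher in 5 of 5 libraries each, and p = 0.0625 is the smallest the exact permutation test allows there. Over the 5 contrasts the Benjamini-Hochberg values were 0.104 to 0.3125, so none passed.

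The members were then read in cells with a Bcl11b UMI, a Zbtb16 UMI (the gene of PLZF, an ILC-specifying factor), both or neither. Of all cells 7653 had only Bcl11b, 6650 only Zbtb16, 1038 both and 45330 neither. Zbtb16 itself was at 266, 239 and 199 CPM in WT and 392, 485 and 419.6 CPM in ΔTE libraries. Id2 was at 78.8 CPM (70.5 to 87.9) in cells with only Zbtb16 and 41.2 CPM (35.4 to 47.7) in cells with only Bcl11b. It was at 67.0 CPM (50.2 to 87.7) in cells with both and 50.9 CPM (48.0 to 53.9) in cells with neither.

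The gap between cells with only Zbtb16 and cells with only Bcl11b opened with the starting stage. In cells with only Zbtb16, Id2 measured 11.4, 51.0 and 131 CPM in WT and 37.1, 93.9 and 437 CPM in ΔTE from DN1, DN2a and DN2b. In cells with only Bcl11b it measured 13.7, 38.2 and 48.4 CPM in WT and 39.5, 46.7 and 75.9 CPM in ΔTE. Cultures from DN1 therefore showed no higher Id2 with Zbtb16, in counts of 8 to 41 UMIs, whereas those from DN2b did. Over cells in no group or progenitor-like only, Id2 was 48.6 CPM with only Zbtb16, 32.8 CPM with only Bcl11b, 37.9 CPM with both and 37.6 CPM with neither.

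**Figure D5:**
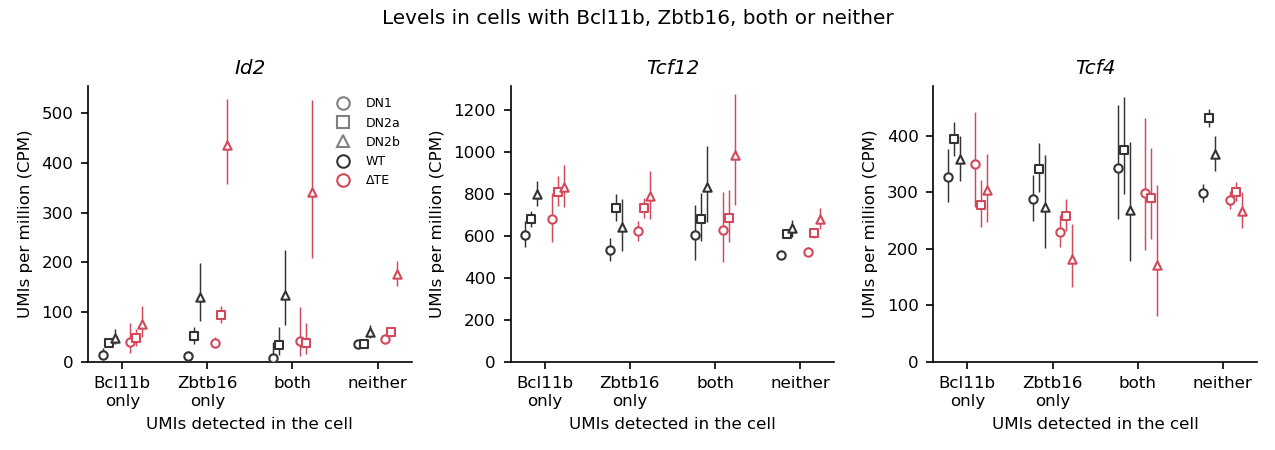
Levels of Id2, Tcf12 and Tcf4 in CPM (vertical axes, from 0) in cells with a UMI of Bcl11b only, Zbtb16 only, both or neither (horizontal axis), with 1 symbol per library and exact Poisson 95% intervals. Colours give the genotype and shapes the starting population. Id2 reaches 437 in Zbtb16-only cells of ΔTE DN2b, against 75.9 in Bcl11b-only cells, 341 in cells with both and 176 in cells with neither of the same library.

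Tcf12 was at 727 CPM in cells with only Bcl11b, 669.6 CPM with only Zbtb16, 707 CPM with both and 578 CPM with neither, pooled over libraries that give different shares of each class. In WT DN2a the order of the first pair was reversed, at 681 CPM with only Bcl11b and 734 CPM with only Zbtb16. Tcf4 was at 266 CPM with only Zbtb16 and 351 CPM with only Bcl11b, and in each of the 6 libraries it was lower in the Zbtb16-only cells. Seen from Id2, the 1422 cells with an Id2 UMI had a Zbtb16 level 0.80 (0.67 to 0.93) above the other cells on the log2 scale. By library this difference was -0.86, 0.48 and 1.23 in WT and -0.13, 0.78 and 1.46 in ΔTE from DN1, DN2a and DN2b. Tcf12 was -0.16 (-0.30 to -0.03) and Bcl11b -0.29 (-0.47 to -0.12) in the same cells, whereas Tcf4 was -0.05 (-0.23 to 0.12). By library Tcf4 was -0.02, 0.40 (0.10 to 0.68) and -0.25 in WT from DN1, DN2a and DN2b. In ΔTE it was -0.45, 0.15 and -0.73 (-1.39 to -0.13), so the libraries went different ways. Cells with an Id2 UMI were deeper (median 524 against 432 UMIs), and the levels are scaled to the UMIs of each set.

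The other lists took in known E protein targets, bHLH partners and cofactors, and inducers of Id genes. The last list also holds Smad7, an inhibitor, so a lower gene on it is not always a lower inducer. Of 17 E protein targets, 7, 12 and 10 had enough UMIs at DN1, DN2a and DN2b, of which 3, 2 and 3 were higher and 3, 6 and 3 lower in ΔTE by more than 1.2-fold. Of all genes 8.41%, 4.47% and 15% were higher and 8.63%, 26.6% and 16.9% lower at these starts. Without stroma-like cells, a choice made after seeing the data, 3, 2 and 3 targets were higher and 2, 5 and 3 lower. Over all kept cells the median log2 ratios of the targets were -0.23, -0.24 and -0.07, against 0.00, -0.14 and -0.01 for all genes. Without stroma-like cells they were -0.13, -0.26 and -0.09, against 0.00, -0.14 and -0.02. Across starts 11 of 12 measured targets were higher in WT DN2a than in WT DN1 (34.6% of all genes were, and 7.97% were lower), with a median of 1.18, as were all 11 measured in ΔTE (17.9% of all genes). From DN2a to DN2b, 6 of 12 were higher and 1 lower in WT and 7 of 12 higher and 1 lower in ΔTE, against 11.9% of all genes higher and 22.9% lower in ΔTE and 4.3% higher and 36.2% lower in WT.

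Among E protein targets, 3 differed the same way by more than 1.2-fold at every start. Cd3g, a subunit of the T-cell receptor complex and also a T-like marker, had log2 ratios of -1.61, -1.20 and -0.27, and Notch3, a Notch receptor of early thymocytes, -0.42, -0.44 and -0.65, as 2.43% of genes were lower at every start. Il7r, the interleukin 7 receptor, was higher, by 0.43, 0.34 and 0.54. Notch3 was also at 116 CPM in stroma-like cells (263 UMIs), against 41.0 CPM in T-like and 11.1 CPM in progenitor-like cells, a difference of 3.49 ± 0.37 between stroma-like and progenitor-like cells (adjusted p = 1.34e-15, edgeR). Stroma-like cells were fewer in ΔTE at every start, at 1.90%, 6.43% and 1.65% against 2.71%, 9.99% and 3.74% in WT. Without them the ratios of Notch3 were -0.13, -0.26 and -0.70, past 1.2-fold at DN2b only, while those of Cd3g were -1.61, -1.25 and -0.30 and those of Il7r 0.42, 0.30 and 0.50.

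The remaining lists were read against the same shares of all genes. Of the 16 genes on the Id inducer list, 10, 14 and 9 were measured, with 0, 2 and 2 higher and 2, 7 and 2 lower. Without stroma-like cells 0, 3 and 1 were higher and 1, 3 and 2 lower of 9, 11 and 9. The 7 of 14 at DN2a stand beside 26.6% of all genes lower there. Smad7, an inhibitor of transforming growth factor β signalling, was the one that was lower at all starts, at 79.3, 76.8 and 78.4 CPM in WT and 61.8, 39.7 and 43.7 CPM in ΔTE, with log2 ratios of -0.37, -0.999 and -0.89 without stroma-like cells. Of the 18 bHLH partners and cofactors, 12, 12 and 8 were measured, with 0, 0 and 1 higher and 1, 2 and 1 lower, each a smaller part of the list than the share of all genes.

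In ILC/NK-like against T-like cells 9 of 12 tested E protein targets fell in edgeR, where 1.83% of genes were called lower. Of these, Cd3d, Cd3e, Cd3g, Ptcra, Rag1 and Rag2 are markers that chose the T-like cells. The grouping itself set their direction, so the count cannot be read against that share. Among those that were not markers, Dntt, the terminal transferase of receptor gene rearrangement, differed by -2.60 ± 0.33 (adjusted p = 4.44e-10) and Notch3 by -1.92 ± 0.54 (adjusted p = 0.0174). Lmo4, a LIM-domain cofactor of bHLH complexes, rose by 1.33 ± 0.25 (adjusted p = 5.17e-05). Egr1, an immediate-early inducer of Id genes, was at 26.3 CPM (53 UMIs) in ILC/NK-like and 1.95 CPM (1 UMI) in T-like cells (adjusted p = 0.00376). In stroma-like cells it was at 107 CPM (244 UMIs). Tox, a factor of early ILC progenitors, was at 1396 CPM in ILC/NK-like and 748 CPM in progenitor-like cells, a rise of 0.78 ± 0.13 (adjusted p = 1.54e-06), and it fell by 0.84 in myeloid-like and by 1.73 in stroma-like cells. T-like against progenitor-like cells showed 8 of 12 targets higher, where 1.29% of genes were called higher. The same T-like markers are among these targets, so this count is also set in part by the grouping. Dntt, which is not a marker, was up by 2.01 ± 0.41 (adjusted p = 0.000408). Ets1, from the Id inducers, rose by 1.91 ± 0.34 in the same contrast (adjusted p = 3.07e-05). Bmpr1a, a bone morphogenetic protein receptor, and Runx1t1, an E protein corepressor, had 245 and 145 UMIs in stroma-like cells and none in progenitor-like cells. Cbfa2t3, of the same corepressor family, was at 92.9 CPM in stroma-like and 399 CPM in progenitor-like cells, a difference of -1.71 ± 0.15 (adjusted p = 1.62e-19, edgeR).

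Over 36 sums of library and cell group, the genes most like each member in level (Pearson r of log2(CPM + 10) among 7986 genes) were as follows. Tcf12 ran with Atp13a3 (r = 0.88), Satb1 (0.87), a chromatin organiser of thymocytes, and Plxdc2 (0.86). Tcf3 ran with Pfdn1 (0.85), Rrp1 (0.80) and Myc (0.79). Tcf4 ran with Tsc22d1 (0.87), Nfia (0.78) and Rpl13 (0.78). Id2 ran with Maf (0.76), Sbf1 (0.74) and Ahr (0.72), of which Maf and Ahr encode transcription factors used by ILCs. Id3 ran with Aplp2 (0.90), Spp1 (0.90) and Cdk14 (0.89), and Id1 with Lrrk1 (0.73), Uap1l1 (0.69) and Fam114a1 (0.68). The sums share libraries and depth and include the stroma-like cells, so these values are descriptions.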

How the data were processed

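Gene by cell UMI counts for 6 libraries were deposited by the authors as sparse count matrices, made from sci-RNA-seq3 reads in which each molecule carries a UMI. The labels name nuclear RNA. A cell was kept if it had 200 or more detected genes, no more than 2000 UMIs and a mitochondrial share of 30% or less, and no barcode was shared between libraries (0). No doublet caller was run, and the UMI limit and an alternative without the deepest 5% of cells stand in for one. Levels are counts per 1000000 kept UMIs (CPM), with exact Poisson or conditional 95% intervals. Wells were read from the cell barcodes. Genes with at least 100 UMIs in the pair of libraries compared made up the shares of all genes. Cell groups needed at least 2 markers, and sums at least 20 cells. Sums were tested with edgeR 4.0.16 (R 4.3.3) at an adjusted p under 0.05, with DESeq2 1.42.0 as an alternative. On simulated counts for ILC/NK-like against T-like cells edgeR called 48% of 100 genes changed by 2-fold, 80% of 100 changed by 4-fold and 0.0711% of 7033 unchanged genes. The libraries behind a test are 6 different conditions, so p-values measure agreement across them. The balance of cell groups used log2((Id + 0.5)/(E + 0.5)) UMIs. Shares of cells were taken after thinning to 300 UMIs. All members were named, as were list genes past 1.2-fold one way at every start, the 2 highest and 2 lowest list genes that passed in a group contrast and marked neither group, and the 3 genes with the highest r to each member among those with at least 500 UMIs. Members and gene lists were chosen with earlier results of these data known. Alternatives changed cell filters, scaling, markers, libraries, wells, the library block and the cells compared. Python 3.11.15 with numpy 2.4.6, scipy 1.17.1, pandas 2.3.3 and matplotlib 3.10.9 was used.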

Additional observations from a re-analysis of the deposited data

How the results depend on the processing

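No paired analysis was possible because each condition was 1 library and no replicate number links libraries of different conditions. Cell groups were compared within libraries, with a library block or by sign-flips, and a fit of genotype with starts as pairs was not run. Low UMI counts limit Id1, and Id3 outside stroma-like cells, and T-like cells from DN1 (43 and 24) limit the group contrasts. There were 306 alternative values of ΔTE to WT ratios of members. Of these, 276 stayed within the counting interval of the main ratio, 29 moved outside it and 1 past 1.2-fold changed sign. Counting ratios near 0 too, 19 changed sign. The cause of the changes below was not tested. The alternatives that leave out ILC/NK-like cells, alone or with stroma-like cells, or stroma-like cells from the other gene lists, the shorter ILC/NK marker list and the genotype interaction were added after seeing the data.

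The log2 Id to E balance, ΔTE to WT, became 0.50, 0.89 and 1.72 at DN1, DN2a and DN2b when Id2 alone stood for the Id genes. It was 0.37 (DN2a) and 1.198 (DN2b) without stroma-like cells, -0.17 and 0.49 without ILC/NK-like cells, 0.40 at DN2a with at most 20% mitochondrial UMIs, and 0.20 and 0.44 with no mitochondrial limit. Leaving out single wells gave -0.47 to 0.46 at DN2a, where well 2 of ΔTE gave the lowest value and well 1 the highest.

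Between starts, the balance with Id2 alone was -0.0057 for WT DN2a to DN1 (a change of sign), 0.72 for WT DN2b to DN2a and 1.55 for ΔTE DN2b to DN2a. Without stroma-like cells the WT values were 0.092 and 0.60 and the ΔTE values 0.14 and 1.44, and Id3 changed sign, to 0.52 for WT DN2b to DN2a, -0.31 for ΔTE DN2a to DN1 and 1.74 for ΔTE DN2b to DN2a. Without ILC/NK-like cells DN2b to DN2a was -0.15 in WT and 0.51 in ΔTE. With both left out the balance was 0.035 and 0.39 in WT and -0.22 and 1.19 in ΔTE, and Id3 was 0.54, -0.52 and 1.65. In cells in no group or progenitor-like only it was 0.33 and 0.39 in WT and 0.031 and 1.23 in ΔTE, with Id3 at 0.57 and 1.56 from DN2a to DN2b. With no mitochondrial limit it was 0.19 and 0.46 in WT and 0.20 and 0.71 in ΔTE, with Id3 at 0.39 and 0.29, and with at most 20% it was 0.82 for ΔTE DN2a to DN1.

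Leaving out single wells gave balances of 0.040 to 0.97 for ΔTE DN2a to DN1 (0.040 without well 2 of DN2a) and 0.53 to 1.46 for ΔTE DN2b to DN2a, Id3 values of -1.43 to 0.71 for the latter, and Id1 values of -1.18 to 0.11 for ΔTE to WT at DN2b.

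Between cell groups, edgeR called 3 members for ILC/NK-like to T-like, 1 for T-like to progenitor-like, 3 for myeloid-like to progenitor-like and 5 for stroma-like to progenitor-like. ILC/NK-like to T-like fell to 1 call with at most 20% mitochondrial UMIs, with WT libraries only, with no marker of another group and with at least 300 genes, to 0 with at least 3 markers (edgeR, 2 members at an unadjusted p under 0.05), and to 1 to 3 when single libraries were left out. T-like to progenitor-like fell to 0 with at most 20% mitochondrial UMIs, without the deepest 5% of cells, within ΔTE, within WT, with no marker of another group, with no library block, and in 0 to 1 when single libraries were left out, and in each case with 0 calls edgeR gave 1 or 2 members at an unadjusted p under 0.05 and DESeq2, run on all libraries, called 1. With at most 20% mitochondrial UMIs myeloid-like to progenitor-like gave 1 and stroma-like to progenitor-like 3. Stroma-like to progenitor-like also gave 3 within ΔTE and with no marker of another group, and 2 with at least 3 markers. The shorter ILC/NK list gave 2 for ILC/NK-like to progenitor-like, against 1.

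The balance of ILC/NK-like over T-like cells was 2.61 without the deepest 5% of cells (exact permutation p = 0.03125), and that of stroma-like over progenitor-like cells 2.86 with the shorter ILC/NK list (exact permutation p = 0.03125), each the smallest possible p.

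Changes of sign concerned differences that had not passed. With at most 20% mitochondrial UMIs Tcf3 was -0.13 (ILC/NK-like to progenitor-like) and -0.16 (stroma-like to progenitor-like), and Tcf12 0.052 (myeloid-like to progenitor-like). With the shorter list Tcf3 was -0.65 (ILC/NK-like to progenitor-like) and Id2 0.076 (T-like to progenitor-like). Within ΔTE Id1 was -0.73, 0.18 and 0.91 for ILC/NK-like to T-like, ILC/NK-like to progenitor-like and T-like to progenitor-like, and Id3 0.17 for the last. For T-like to progenitor-like, Tcf4 was -0.0097 and Id2 0.46 within WT, Id2 was 0.86 with no marker of another group, 0.15 with at least 300 genes and 0.52 with no library block, and Id3 0.14 with no library block. Tcf3 was -0.12 for stroma-like to progenitor-like with no low count filter. Leaving out single libraries, Id1 ran from -0.17 to 1.18 (ILC/NK-like to T-like), Tcf3 from -0.028 to 0.13 (ILC/NK-like to progenitor-like), Id2 from -0.68 to 0.24 and Id3 from -0.79 to 0.016 (T-like to progenitor-like).

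Without thinning, the share of cells with an Id2 UMI was 1.35%, 1.59% and 2.84% in WT and 2.11%, 2.96% and 7.73% in ΔTE, in the same order as the thinned shares.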
